A study of Mus musculus and Homo sapiens with 27 samples.

Results

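The comparison described here sets splenic B cells without Irf4 against B cells with 1 functional allele after 24 or 48 h in culture with lipopolysaccharide (LPS), the cell-wall product of Gram-negative bacteria that drives mouse B cells to divide and to secrete antibody. Its members were chosen by array title and measure 10 of the 27 arrays of the series, of which 23 are mouse arrays. Het cells (Irf4 -/+) were measured on 2 arrays at each of the times, and KO cells (Irf4 -/-) on 3 arrays at each. All the cells came from the spleens of adult Balb-c mice and were grown in vitro with LPS, so the controls carry 1 disrupted allele too and no wild-type cells enter the comparison. RNA was read on the mouse lymphochip, a glass slide printed with cDNA clones of lymphocyte genes. Each value is a log2 ratio of the sample over a reference pool, a mixture of RNA from lymphoid and macrophage lines, with the median of the array set to 0, and ratio values of different genes are not compared as levels of RNA. The sources used here do not give the purity of the B cells, the number of mice behind an array or the design of the disrupted allele. Irf4 itself was not among the named features, so its loss was not checked on these arrays.

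IRF4 is a transcription factor of the interferon regulatory factor family. It binds DNA with an interferon response core that contains GAAA, alone or beside a partner of the ETS or AP-1 family, and B cells raise it after stimulation. At high levels it takes part in class switching and in the change of an activated B cell to a plasma cell, in which Prdm1 (Blimp-1) and Xbp1 build the secretory machinery and the B-cell programme is shut down.

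Some properties of the arrays touch all the values below. The titles and the channel fields disagree for 3 arrays, which are KO by title and Het by channel (replicate 3 at 24 h, and replicates 1 and 3 at 48 h), so main results are also given without them. The titles carry numbers of the authors' database in 3 ranges, and the lowest range holds Het 24 h replicate 1 and KO 24 h replicate 1. These 2 arrays stood apart, with a mean correlation with the other early arrays of 0.44 (Het) and 0.34 (KO), against 0.65 to 0.72 for the other 8. On Het 24 h replicate 1, 15.4% of all features lay beyond 6 log2 units from the array's median. Cd79b, part of the B-cell receptor, lay above the array median on 10 of 10 arrays (1.97 to 3.37), and a reversed ratio would turn the sign of every difference. The centring matters as well: the median difference KO minus Het of all genes was -0.24 with arrays centred over all 12292 features, where 239 genes (72.2%) lay below 0. It was 0.08 with arrays centred over the 559 features that carry 1 gene symbol (here the named features), a shift of 0.32.

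No gene passed the test between KO and Het cells. Of 331 genes, 0 (0%) had an adjusted p under 0.05 by limma with time as a covariate and Benjamini-Hochberg adjustment, and the count was 0 in each of 26 alternatives as well. At an unadjusted p under 0.05, 24 genes (7.25%) were lower in KO cells and 2 (0.604%) were higher. The excess on the lower side depends on the centring, because the same counts were 11 lower and 14 higher when the named features set the centre. With the replicate number as a block, 7 genes in all had an unadjusted p under 0.05. Without the 2 arrays of the lowest range 29 genes (8.76%) were lower and 5 (1.51%) higher at that level, and without the 3 arrays of conflicting labels 5 were lower and 1 was higher.

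The gene with the smallest p was Jchain, which encodes the joining chain that links IgM and IgA into secreted polymers. Its log2 ratios in Het cells were -0.56 and -2.02 at 24 h and 0.89 and -0.35 at 48 h. In KO cells they were -2.59, -4.98 and -2.98 at 24 h and -4.00, -3.87 and -3.92 at 48 h. All 6 KO arrays lay below all 4 Het arrays, and the 3 KO arrays at 48 h lay within a narrow band. The difference was -3.21 ± 0.60 (SE, 6 KO and 4 Het arrays, 95% confidence interval -4.56 to -1.86), a 9.26-fold lower ratio in KO cells, with an adjusted p of 0.135 by limma. An exact 2-sided permutation of the genotype within each time gave p = 0.01, the smallest that its 100 assignments allow, and 8 of 331 genes (2.42%) reached that value. It exchanges arrays freely within a time and does not keep the pairs of the same replicate number; exchange within such pairs alone would leave fewer assignments and could not give so small a p. Over 26 alternatives the difference lay between -3.81 and -1.97 and the adjusted p between 0.0528 and 0.687. The value nearest to 0 came from taking the 3 arrays of conflicting labels as Het, and with those arrays left out the difference was -3.15 ± 0.78 (adjusted p 0.687 by limma). Those 3 arrays, at -2.98, -4.00 and -3.92, lay below each Het array. Set side by side within a range of the database number, KO minus Het was -2.04 in the lowest range at 24 h, -2.96 in the middle range at 24 h, -4.88 in the middle range at 48 h and -3.54 in the highest range at 48 h. In bulk RNA of this kind, fewer cells that express a gene and less of its RNA in each cell cannot be told apart.

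**Figure D1:**
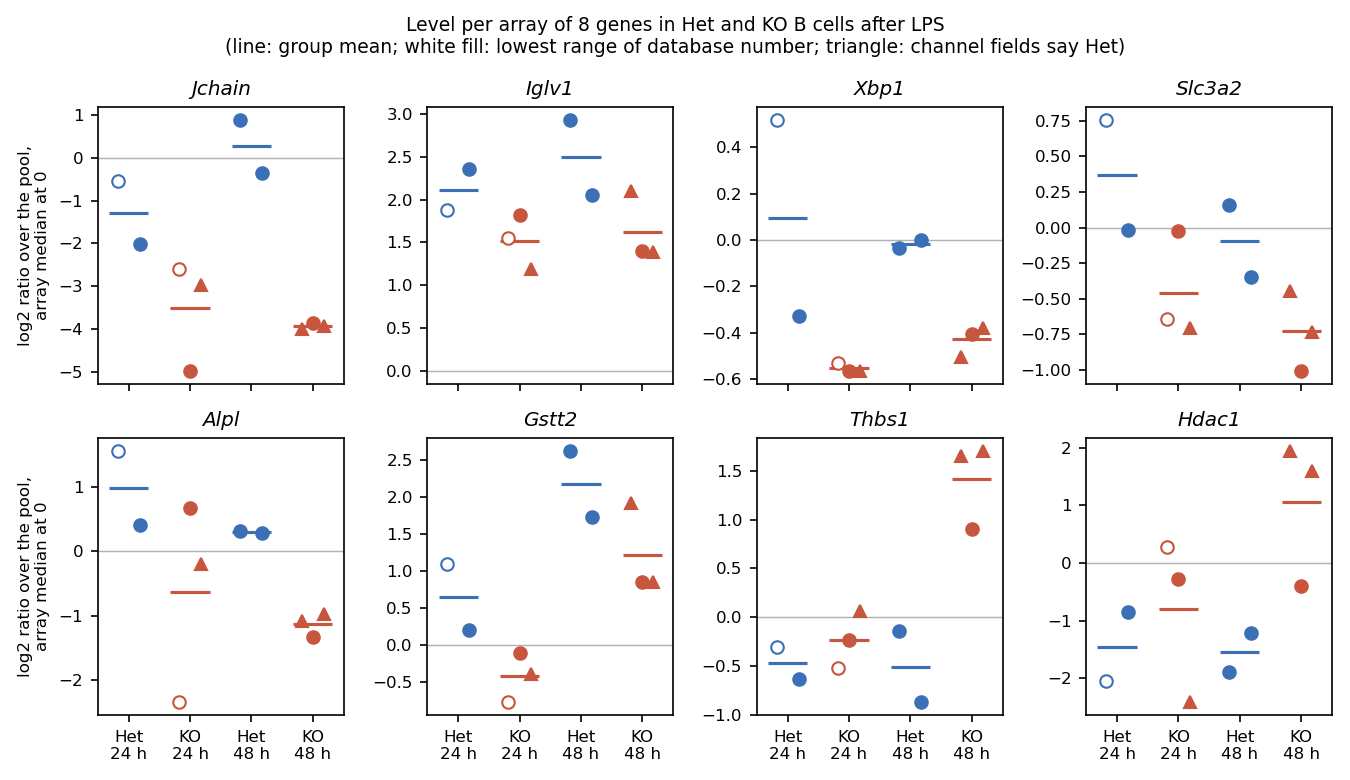
Log2 ratio over the reference pool, with the array median at 0 (y axis), of 8 genes on each of the 10 arrays, grouped by genotype and time (x axis). Lines are group means, white symbols are the 2 arrays of the lowest range of the database number and triangles are the 3 arrays whose channel fields say Het. Jchain lies between -4.98 and -2.59 on the 6 KO arrays and between -2.02 and 0.89 on the 4 Het arrays, while Alpl and Hdac1 overlap between the genotypes at 24 h.

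The promoter of Jchain is shown because Jchain had the smallest p and because an IRF site has a readable core. The 250 bases before its start, from RefSeq on GRCm38.p6 at chr5:88527898-88528147 on the minus strand, are printed with each GAAA, or its reverse complement TTTC, in capitals.
Jchain: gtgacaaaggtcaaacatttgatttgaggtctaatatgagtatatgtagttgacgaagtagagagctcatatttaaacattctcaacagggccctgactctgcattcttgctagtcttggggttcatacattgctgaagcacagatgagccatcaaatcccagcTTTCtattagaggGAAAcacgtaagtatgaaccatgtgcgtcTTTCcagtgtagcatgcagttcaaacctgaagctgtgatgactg
The stretch holds 3 matches on both strands together, at positions from -86 to -44 relative to the start. Of all 32851 promoters, 46.3% held at least as many in the same window, and the median was 2. A match is only a match of letters. Of the array genes, 266 of 331 had a promoter in the table.

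The other antibody genes on the array were Iglv1, a variable segment of the lambda light chain, and Mzb1, a chaperone of the endoplasmic reticulum (ER) that helps to assemble IgM. Iglv1 read 1.88 and 2.35 (24 h) and 2.93 and 2.05 (48 h) on the Het arrays. On the KO arrays it read 1.55, 1.82 and 1.20 (24 h) and 2.10, 1.40 and 1.39 (48 h). At 24 h each KO array lay below each Het array, and at 48 h KO replicate 1 lay above the lower Het array. The difference of Iglv1 was -0.73 ± 0.27 (SE, adjusted p 0.436 by limma), and whether the spot also reads related lambda segments was not tested. Mzb1 turned on 1 array: it read -9.19 on Het 24 h replicate 1 and between -0.31 and 1.00 on the other 3 Het arrays, against -0.81 to 0.39 on the KO arrays. Its difference was 1.85 ± 1.57 with that array and -0.37 without the lowest range (adjusted p 0.584 and 0.58 by limma).

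Of the plasma cell programme list, 5 genes were measured (Xbp1, Slc3a2, Ell2, Prdm1 and Sdc1). All 5 had a difference below 0, against 72.2% of all genes, with a median of -0.73 against -0.24. Jchain and Mzb1, also plasma cell markers, were counted with the antibody genes and differed by -3.21 and 1.85, so the count depends on the list. At an unadjusted p under 0.05, 3 of the 5 were lower, against 7.25% of all genes, and 0 passed the adjusted test. The count of 5 depends on the centring, since 4 of the 5 were below 0 with a median of -0.41 against 0.08 for all genes when the named features set the centre. Without the 3 arrays of conflicting labels 4 of the 5 were below 0, with a median of -0.77 against -0.35 for all genes. Of the 5, 0 then had an unadjusted p under 0.05, against 6 of all 331 genes. Xbp1, the transcription factor that expands the ER, read 0.52 and -0.33 at 24 h and -0.04 and 0.00 at 48 h on the Het arrays. On the KO arrays Xbp1 read -0.53, -0.56 and -0.57 at 24 h and -0.50, -0.40 and -0.38 at 48 h. Each KO array lay below all 4 Het arrays and the KO values were close together. The difference of Xbp1 was -0.53 ± 0.21 (adjusted p 0.436 by limma), and centred over the named features the genotypes overlapped.

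Slc3a2 encodes the heavy chain of CD98, which carries amino-acid transporters to the surface of growing lymphocytes. It read 0.76 and -0.01 (24 h) and 0.16 and -0.35 (48 h) on the Het arrays, and -0.65, -0.03 and -0.70 (24 h) and -0.44, -1.01 and -0.73 (48 h) on the KO arrays. At 24 h the gap between KO replicate 2 and Het replicate 2 was small, and the groups overlapped after quantile normalization and after scaling to a common spread. The difference of Slc3a2 was -0.73 ± 0.26 (adjusted p 0.436 by limma). Ell2, an elongation factor that favours the secreted form of antibody heavy-chain RNA, differed by -0.84 ± 0.32 (adjusted p 0.436 by limma), and its KO arrays at -1.22 to 0.07 overlapped the Het arrays at -0.18 to 0.79. Prdm1, the repressor Blimp-1, differed by -1.89 ± 1.57, with values from -7.07 to 2.37 among the KO arrays, and by -0.68 without KO 24 h replicate 2. Sdc1, the surface proteoglycan CD138 that marks plasma cells, differed by -0.19 ± 0.96. Both spread widely between arrays of 1 genotype.

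**Figure D2:**
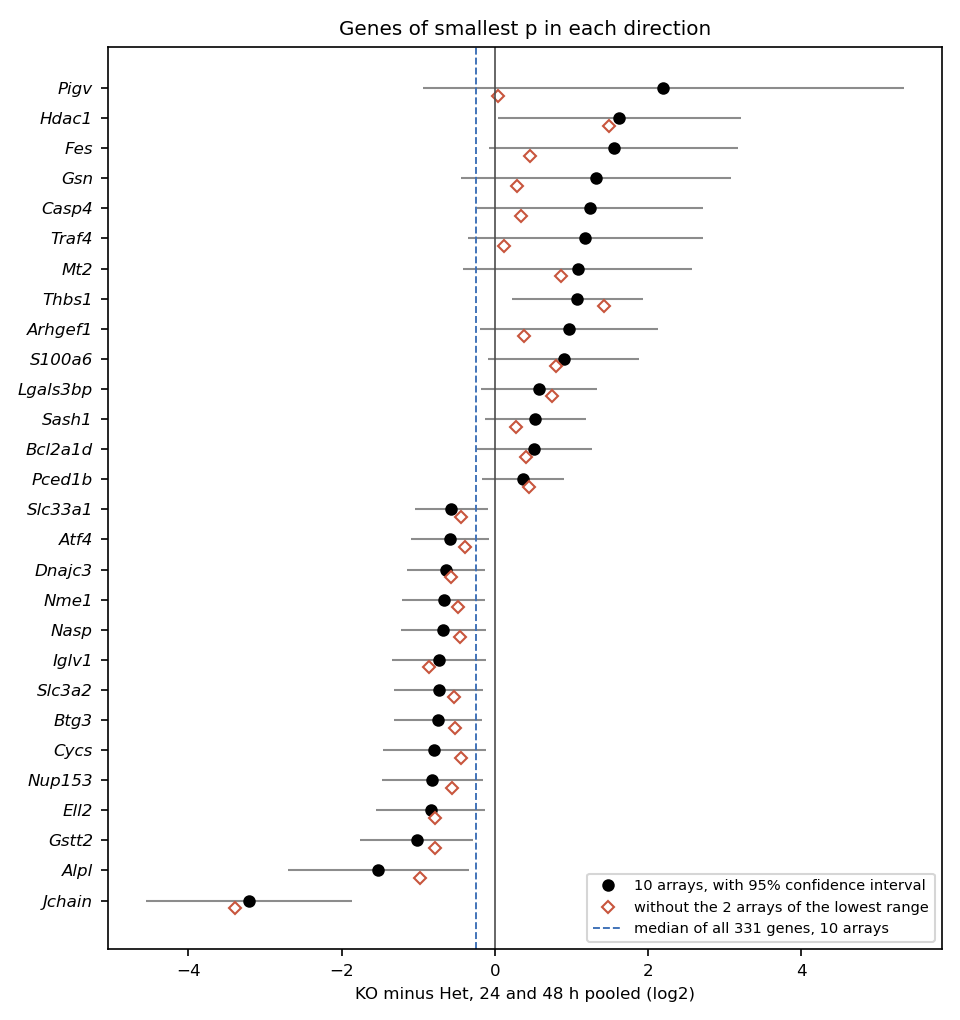
Difference KO minus Het in log2 units (x axis) of 28 genes, the 14 of smallest p in each direction (y axis), with its 95% confidence interval over 10 arrays (black) and its value without the 2 arrays of the lowest range (open diamonds). Jchain is the farthest from 0 at -3.21, and the diamond of Pigv moves from 2.20 to 0.04.

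The ER and secretion list had 14 measured genes, of which 10 had a difference below 0, close to the 72.2% of all genes, with a median of -0.39 against -0.24. At an unadjusted p under 0.05, 3 of the 14 were lower (Dnajc3, Slc33a1 and Atf4), against 7.25% of all genes. Without the 3 arrays of conflicting labels 0 of the 14 reached that level in either direction, against 6 of all 331 genes. Without the lowest range 12 of 14 were below 0 with a median of -0.16, against -0.08 for all genes. When the named features set the centre, 9 of 14 were below 0 with a median of -0.06, against 0.08 for all genes. Dnajc3, an ER co-chaperone that also restrains the kinase PERK, read 0.95 and 0.19 (24 h) and 0.59 and 0.60 (48 h) on the Het arrays. On the KO arrays Dnajc3 read 0.32, 0.10 and -0.29 (24 h) and -0.30, -0.16 and 0.01 (48 h). The genotypes overlapped at 24 h and were apart at 48 h. The difference of Dnajc3 was -0.63 ± 0.23 (adjusted p 0.436 by limma). Slc33a1, which carries acetyl-CoA into the ER, differed by -0.57 ± 0.21, and its KO arrays at -0.42 to 0.17 lay below all 4 Het arrays at 0.29 to 0.85. Atf4, the transcription factor of the integrated stress response, differed by -0.58 ± 0.23, and its KO and Het arrays overlapped at 24 h.

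The remaining genes named from that list moved with the lowest range. Herpud1, part of the machinery that removes misfolded ER proteins, differed by -1.11 ± 0.67 and by -0.33 without that range. Sec61a1, the channel subunit through which new proteins enter the ER, differed by -0.66 ± 0.42 and by -0.13 without it. Edem1, which marks misfolded glycoproteins for removal, turned from 0.64 ± 1.53 to -0.85, and Slc35a2, the UDP-galactose transporter of the Golgi, from 0.98 ± 1.22 to -0.06. Whether the 2 arrays of that range or the cells on them set these values was not tested.

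Genes of DNA replication and division had differences below 0 in 9 of 10 cases, against 72.2% of all genes, with a median of -0.62 against -0.24. At an unadjusted p under 0.05, 2 of the 10 (Nasp and Mcm2) were lower, against 7.25% of all genes. Without the 3 arrays of conflicting labels 0 of the 10 reached that level in either direction, against 6 of all 331 genes. The median was -0.35 without the lowest range (10 of 10 below 0), where that of all genes was -0.08. It was -0.29 when the named features set the centre (9 of 10 below 0), where that of all genes was 0.08. Nasp, a histone chaperone of S phase, read 2.03 and 1.56 (24 h) and 1.09 and 0.98 (48 h) on the Het arrays. On the KO arrays Nasp read 0.46, 1.49 and 1.06 (24 h) and 0.57, 0.25 and 0.65 (48 h). Each KO array lay below each Het array of its time, although the smallest gap at 24 h was narrow, and the mean of each genotype was lower at 48 h than at 24 h. The difference of Nasp was -0.67 ± 0.25 (adjusted p 0.436 by limma). Mcm2, a subunit of the replicative helicase, differed by -0.74 ± 0.32 and by -0.37 without the lowest range. Pcna, the sliding clamp of DNA polymerase, differed by -0.74 ± 0.34 and by -0.37 without it. Rrm2, which makes deoxyribonucleotides, differed by -0.80 ± 0.70, a value that was -0.24 without Het 48 h replicate 1 and -1.45 without Het 48 h replicate 2.

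Growth and biosynthesis genes were below 0 in 13 of 14 cases with a median of -0.54, against 72.2% and -0.24 for all genes. When the named features set the centre these values were 10 of 14 and -0.22, against 156 of 331 and 0.08 for all genes. In the main setting 0 of the 14 had an unadjusted p under 0.05. Without the lowest range 9 of 14 were below 0 with a median of -0.15, against 202 of 331 and -0.08 for all genes. Myc, the growth-driving transcription factor, differed by -0.92 ± 0.63 and by -0.13 without both arrays of that range. Het 24 h replicate 1 read 1.29 for Myc, and KO 24 h replicate 1 read -2.99 against -0.73 to 0.22 on the other KO arrays. The difference of Myc was -0.52 without the first of these arrays alone and -0.38 without the second alone. Ncl, the nucleolar protein nucleolin, differed by -0.68 ± 0.32 and by -0.31 without the lowest range. Rheb, the activator of mTORC1, differed by -0.69 ± 0.41 and by -0.17 without that range. Nme1, a nucleoside diphosphate kinase outside the lists, differed by -0.67 ± 0.24 (adjusted p 0.436 by limma), and its KO arrays at 0.25 to 1.38 overlapped the Het arrays at 0.99 to 2.27.

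**Figure D3:**
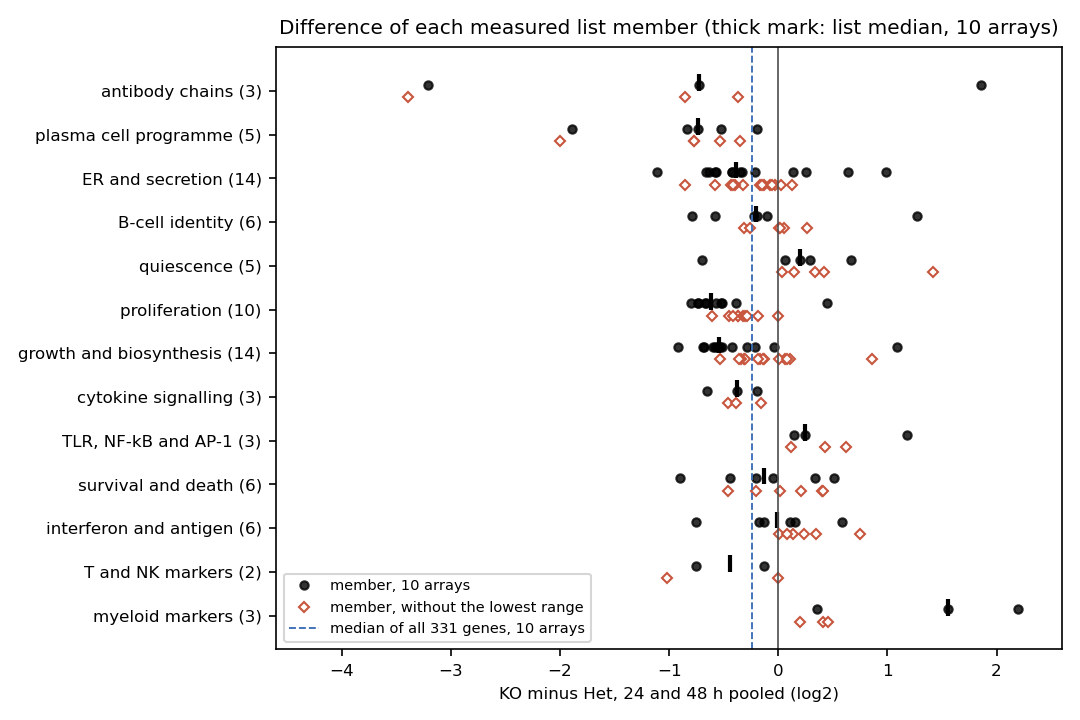
Difference KO minus Het in log2 units (x axis) of each measured member of 13 gene lists (y axis, number measured in parentheses), over 10 arrays (black) and without the 2 arrays of the lowest range (open diamonds). The thick mark is the list median over 10 arrays and the dashed line the median of all 331 genes at -0.24. All 5 members of the plasma cell programme list lie below 0 in both sets. The myeloid median of 1.55 moves to 0.41 without the lowest range.

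Among the other named genes with lower values in KO cells, Gstt2, a glutathione S-transferase, came next to Jchain in p. It read 1.10 and 0.21 (24 h) and 2.63 and 1.73 (48 h) on the Het arrays, and -0.78, -0.10 and -0.39 (24 h) and 1.93, 0.86 and 0.85 (48 h) on the KO arrays. At 24 h the genotypes were apart, at 48 h KO replicate 1 lay above Het replicate 2, and both genotypes read higher at 48 h. The difference of Gstt2 was -1.02 ± 0.33 (adjusted p 0.436 by limma). Alpl, the tissue-nonspecific alkaline phosphatase, read 1.56 and 0.41 (24 h) and 0.31 and 0.29 (48 h) on the Het arrays. On the KO arrays Alpl read -2.34, 0.67 and -0.20 (24 h) and -1.09, -1.33 and -0.98 (48 h). It was apart between genotypes at 48 h and overlapped at 24 h, where KO replicate 2 lay above Het replicate 2. The difference of Alpl was -1.52 ± 0.52 over all arrays and -0.98 without the lowest range. Btg3, an antiproliferative protein of the BTG/TOB family, differed by -0.75 ± 0.26. Nup153, a nucleoporin of the nuclear basket, differed by -0.81 ± 0.29, and Cycs, cytochrome c, by -0.79 ± 0.30.

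For 20 genes (6.04%) each KO array lay below each Het array at both times, and for 0 genes (0%) each KO array lay above. The 20 include Jchain, Xbp1, Slc3a2, Slc33a1, Nasp, Nup153, Btg3 and Cycs, and also Tcf4, the E protein E2-2, and Atp2a2, the calcium pump SERCA2 of the ER. The balance depends on the centring: when the named features set the centre the counts were 13 below and 6 above, and 6 of the 20 genes were among the 13, Jchain being 1 of them. In all 5 scalings tried only Nup153 and Adck1, a mitochondrial kinase-like protein, were separated, Jchain being lost under quantile normalization alone. Adck1 read 2.73 and 1.49 (24 h) and 2.73 and 1.98 (48 h) on the Het arrays and -2.01, 1.02 and 0.76 (24 h) and 1.84, 1.13 and 1.25 (48 h) on the KO arrays, a difference of -1.57 ± 0.62 with all arrays and -0.82 without the lowest range. Adck1 was named here after its values were seen.

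On the higher side, 14 genes were named and 2 of them had an unadjusted p under 0.05. Thbs1, the secreted matrix protein thrombospondin 1, read -0.30 and -0.63 (24 h) and -0.14 and -0.88 (48 h) on the Het arrays. On the KO arrays Thbs1 read -0.52, -0.24 and 0.06 (24 h) and 1.65, 0.90 and 1.71 (48 h). The genotypes overlapped at 24 h and lay more than 1 log2 unit apart at 48 h. The difference of Thbs1 was 1.08 ± 0.38 (adjusted p 0.436 by limma), and 1.43 without the lowest range. Without the 3 arrays of conflicting labels, among them the 2 highest, it was 0.62 ± 0.43. Hdac1, a histone deacetylase of corepressor complexes, read -2.05 and -0.86 (24 h) and -1.89 and -1.21 (48 h) on the Het arrays and 0.29, -0.27 and -2.42 (24 h) and 1.95, -0.40 and 1.60 (48 h) on the KO arrays. At 24 h KO replicate 3 was the lowest of the 5 arrays, and at 48 h all KO arrays were above. The difference of Hdac1 was 1.63 ± 0.70 (adjusted p 0.436 by limma), but its 2 features lay up to 6.92 log2 units apart on 1 array.

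The other 12 named higher genes had p-values over 0.05, and many turned on 1 array. Het 24 h replicate 1 was the lowest of all 23 mouse arrays for 8 of the 14, and without the lowest range 6 of the 14 differences were at most 0.5 times as large. Of the 10 higher genes with more than 1 feature, 7 had features over 5 log2 units apart on at least 1 early array, as had 39 of all 222 genes with more than 1 feature (17.6%). Pigv, a mannosyltransferase of GPI-anchor synthesis, went from 2.20 to 0.04 without the lowest range, Fes, a tyrosine kinase of myeloid cells, from 1.55 to 0.46, and Gsn, the actin-severing protein gelsolin, from 1.32 to 0.29. Casp4, the inflammatory caspase that senses LPS, went from 1.24 to 0.34, Traf4, a signalling adaptor, from 1.18 to 0.12, and Arhgef1, an exchange factor for RhoA, from 0.97 to 0.38. S100a6, a calcium-binding protein, moved less, from 0.90 ± 0.44 to 0.80. Lgals3bp, a secreted galectin-3 ligand, read 0.58 ± 0.34 and 0.75, and Mt2, a metallothionein, 1.09 ± 0.66 and 0.86. The last 3 were Sash1, a signalling scaffold, at 0.53 and 0.28, Pced1b at 0.37 and 0.45, and Bcl2a1d, an antiapoptotic BCL2 relative, at 0.51 and 0.41. Bcl2a1d has near-identical gene copies, and whether its spots also read them was not tested.

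B-cell identity and signalling genes gave no gene past the adjusted test. The identity genes together averaged 1.01 to 1.77 on the Het arrays and 0.38 to 1.99 on the KO arrays, above the array median throughout. Of 6 identity genes 5 were below 0 with a median of -0.21, near the 72.2% and -0.24 of all genes. When the named features set the centre 2 of 6 were below 0 with a median of 0.12, against 156 of 331 and 0.08 for all genes. The list median was -0.74 at 24 h and 0.15 at 48 h, against -0.49 and -0.08 for all genes. Without the lowest range 2 of 6 were below 0 with a median of 0.01, against 202 of 331 and -0.08 for all genes. Bank1, an adaptor of the B-cell receptor, differed by -0.22 ± 0.31 and by 0.00 without that range. Tcf4 differed by -0.79 ± 0.39 and by -0.32, and Id3, which opposes E proteins, by -0.58 ± 0.36 and by -0.25. Id2, an inhibitor of the same kind, turned on Het 24 h replicate 1 at -5.90 and went from 1.27 ± 0.93 to 0.02.

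Of 5 quiescence genes 4 were above 0 with a median of 0.20, against 92 of 331 and -0.24 for all genes. At 24 h 3 of 5 were below 0 and at 48 h 0 of 5, against 248 and 194 of 331. Without the lowest range the median was 0.34 with 0 of 5 below 0, against -0.08 and 202 of 331 for all genes. The median of the quiescence list moved to -0.02 without the arrays of conflicting labels, with 3 of 5 below 0. For all genes it was -0.35 with 251 of 331 below 0. Ets1, a transcription factor that restrains plasma cell formation, differed by 0.67 ± 0.63, by 1.41 without the lowest range and by 0.038 without Het 48 h replicate 1. Foxp1 differed by -0.70 ± 0.74 and by 0.03, Trp53inp1, a stress protein induced by p53, by 0.29 ± 0.76 and by 0.14, and Tsc22d3, the glucocorticoid-induced GILZ, by 0.20 ± 0.27 and by 0.42. All 3 cytokine-signalling genes were below 0, against 239 of 331 for all genes. When the named features set the centre 2 of 3 were, against 156 of 331. The kinase Pim1 differed by -0.65 ± 0.54 and by -0.16 without the lowest range, whose KO array read -1.99. The others were the growth factor Csf1 at -0.19 ± 0.27 and the feedback inhibitor Socs2 at -0.38 ± 0.33. All 3 genes of the Toll-like receptor, NF-kB and AP-1 list were above 0, against 92 of 331 for all genes. At 24 h 2 of the 3 were below 0, and at 48 h 1 was. The list median was 0.24, and 0.42 without the lowest range. The kinase Ikbke differed by 0.14 ± 0.37 and by 0.62 without the lowest range, whose arrays read 0.75 (Het) and -0.95 (KO). Jun of AP-1 differed by 0.24 ± 0.33, and Traf4 is given above.

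Survival genes were split, with 4 of 6 below 0 and a median of -0.13, against 239 of 331 and -0.24 for all genes. The median of the survival list turned to 0.11 without the lowest range and to 0.19 when the named features set the centre, each with 2 of 6 below 0. For all genes these medians were -0.08 (202 of 331 below 0) and 0.08 (156 of 331 below 0). Bid, a proapoptotic BH3 protein, differed by -0.90 ± 0.41 and by -0.46 without the lowest range, Birc3, an inhibitor of apoptosis induced by NF-kB, by -0.44 ± 0.41 and by -0.20 without it, and Bcl2l11, the BH3 protein BIM, by 0.33 ± 0.27. Interferon and antigen-presentation genes were at a median of -0.02 with 3 of 6 below 0, against -0.24 and 239 of 331 for all genes. At 24 h 5 of 6 were below 0 (median -0.41) and at 48 h 0 of 6 (median 0.32). For all genes these values were 248 of 331 (-0.49) and 194 of 331 (-0.08). Without the arrays of conflicting labels 5 of 6 were below 0 (median -0.14), against 251 of 331 (-0.35). Without the lowest range 0 of 6 were below 0 (median 0.18), against 202 of 331 (-0.08). Irf1, a relative of Irf4, differed by 0.15 ± 0.26, Tap1, a peptide transporter, by -0.18 ± 0.28, and B2m, the light chain of MHC class I, by -0.76 ± 0.61 and by 0.01 without the lowest range.

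Markers of other cell types were measured for 2 T or NK genes and 3 myeloid genes. The T-cell receptor subunit Cd3g and the protease Gzma together averaged -2.26 to -0.71 on the Het arrays and -4.51 to -0.14 on the KO arrays, and they differed by -0.13 ± 0.91 and -0.75 ± 0.71. The myeloid genes averaged -3.78 to 0.64 on the Het arrays and 0.32 to 1.19 on the KO arrays. Of these genes 3 of 3 had a difference above 0, against 92 of 331 for all genes. Ncf1, a subunit of the phagocyte oxidase, differed by 2.19 ± 1.46, and by 0.20 without the lowest range, and Het 24 h replicate 1 read -6.90. Tyrobp, an adaptor of myeloid and NK receptors, differed by 0.35 ± 0.24 and by 0.41. The part of other cells in the differences above was not tested.

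Whether KO and Het differed alike at both times was tested as an interaction, and 0 of 331 genes (0%) passed, with 4 (1.21%) at an unadjusted p under 0.05. The difference of Jchain was -2.23 at 24 h and -4.19 at 48 h, but the change between times, -1.97, had an adjusted p of 0.779 by limma. Thbs1 went from 0.23 at 24 h to 1.93 at 48 h, a change of 1.69 ± 0.55 (adjusted p 0.779 by limma). The smallest p belonged to Gm7390, a predicted gene named here after its values were seen, which read 2.32 and 1.19 on the Het arrays at 24 h and -1.96, -1.54 and -3.10 on the KO arrays. At 48 h Gm7390 read -0.68 and -2.72 on the Het arrays and 0.18, -0.09 and -0.10 on the KO arrays. The order of the genotypes was thus opposite at the times, without overlap at either, and the change was 5.65 ± 0.97 (adjusted p 0.109 by limma). This count rested on single arrays, since 20 genes passed without Het 24 h replicate 2 and 1 without Het 48 h replicate 1, each of which leaves 1 Het array at a time that is then assumed to vary like the other groups.

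The early difference was then set against those in unstimulated cells (3 Het and 3 KO arrays) and after 96 h of LPS (4 Het and 3 KO arrays), in a fit of all 23 mouse arrays. Against unstimulated cells 0 genes (0%) passed, with 31 (9.37%) at an unadjusted p under 0.05. The unstimulated difference of Jchain was -7.44 ± 1.25, with 1 KO array at -10.27, and the early value lay 4.23 ± 1.60 nearer to 0 (adjusted p 0.32 by limma). That distance turned on single arrays, being 1.82 without KO unstimulated replicate 2 and 5.63 without KO unstimulated replicate 1. That count too rested on single arrays, being 15 without Het unstimulated replicate 3, 5 without Het unstimulated replicate 1 and 3 without Het 24 h replicate 2.

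Against 96 h, 1 gene (0.302%) passed, with 13 (3.93%) at an unadjusted p under 0.05. Socs2, a suppressor of cytokine signalling that is itself induced by STAT5, read 0.42 and -0.37 (24 h) and 0.41 and -0.20 (48 h) on the early Het arrays and 0.77, -0.32 and -0.74 (24 h) and -0.39, -0.60 and -0.57 (48 h) on the early KO arrays. At 96 h Socs2 read 2.02, 2.30, 2.93 and 3.13 on the Het arrays and -1.45, -1.35 and -1.29 on the KO arrays. The genotypes overlapped at 24 h and were far apart at 96 h. The difference KO minus Het of Socs2 was -0.38 early and -3.96 ± 0.42 at 96 h, and the gap between these, -3.58 ± 0.55, had an adjusted p of 0.00133 by limma. All 7 arrays at 96 h belong to the highest range of the database number, and with the range as a factor the gap was -3.72. Socs2 passed in all 30 alternatives of this comparison, with adjusted p between 9.26e-06 and 0.0204.

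Ints7, a subunit of the Integrator complex, and Trim65, a ubiquitin ligase, came next and were named after their values were seen. The gap of Ints7 was -2.56 ± 0.58 (adjusted p 0.0551 by limma) and that of Trim65 was -2.36 ± 0.61 (adjusted p 0.127 by limma). With the replicate number as a block 3 genes passed, Ints7, Socs2 and Trim65, and without the lowest range 6 passed. Without Het 24 h replicate 2 the count was 4. The gap of Jchain, -4.20 ± 1.54, had an adjusted p of 0.754 by limma. Over the 30 alternatives that gap lay between -5.87 and -3.83 and passed in 2. Ints7 passed in 15 and Trim65 in 7 of the 30, and some of the alternatives leave 1 array in a group. Jchain was separated between genotypes at each time, while Ints7 and Trim65 overlapped at 24 h and not at 96 h.

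**Figure D4:**
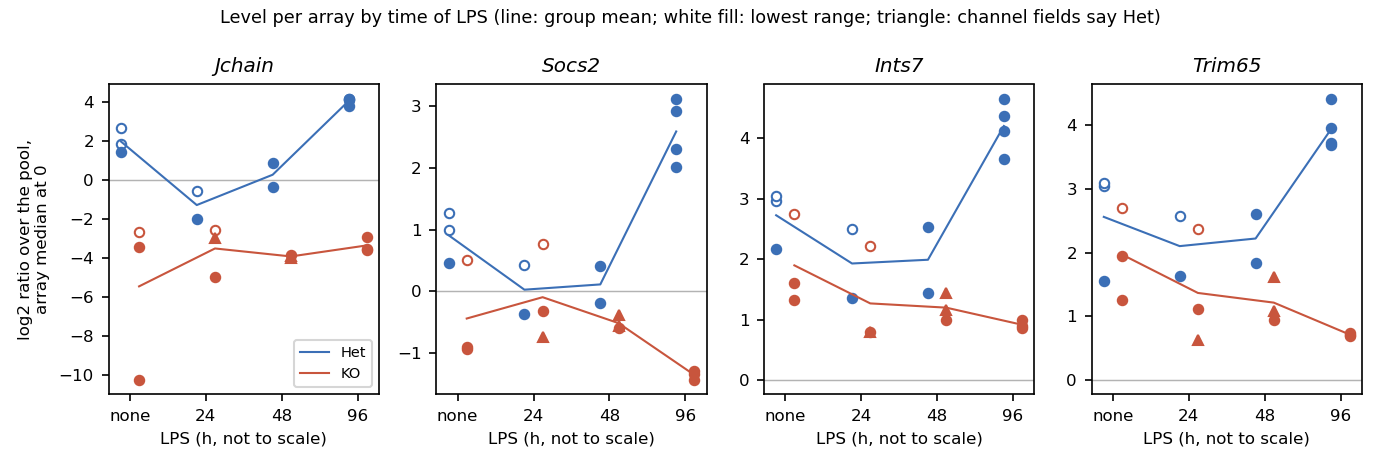
Log2 ratio over the reference pool, with the array median at 0 (y axis), of 4 genes on each mouse array by time of LPS (x axis, not to scale). Blue is Het, red is KO, lines are group means, white symbols are arrays of the lowest range and triangles are arrays whose channel fields say Het. The Socs2 groups overlap at 24 h and lie at 2.02 to 3.13 in Het and -1.45 to -1.29 in KO at 96 h.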

How the data were processed

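RNA of cultured B cells, labelled with Cy5, was hybridised on each array with a reference pool labelled with Cy3, per the labels. The authors deposited 1 log2 ratio per feature and array. The base was taken from their range, since the largest absolute value, 13.247, exceeds the natural log of a 16-bit range (11.1), and the direction, sample over pool, from the dyes. The sources used here name no scanner, background correction or normalization, and single-channel signals were not analysed here. The number of arrays limits the precision. The design text calls replicates biological repeats without naming separate mice or cultures, so p-values measure the spread between these samples, which may be technical.

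The median over 12292 features was subtracted from each array, and the 559 features with 1 gene symbol were averaged per gene, giving 331 genes, 222 of them with more than 1 feature. Features with several symbols (44) or none (11689) entered only the centring. Genotype and time were fitted to the 6 KO and 4 Het arrays with limma 3.58.1 in R 4.3.3 (2-sided, Benjamini-Hochberg over all 331 genes, threshold 0.05). The script was tested on simulated data. No 2 columns were identical.

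Named genes are the 14 of smallest p in each direction, then up to 4 members of each list with the largest absolute difference, and all of the antibody, plasma cell, T and NK and myeloid lists. Members and lists were chosen with earlier results of these data known. Of 6 erythroid marker genes listed, 0 were measured. Same-numbered Het and KO arrays deviated together in 4 of 4 pairs (correlation 0.136 to 0.511), though with 2 Het arrays a time the pairs mirror each other. Each same-numbered pair also shares a range of the database number, so number and range cannot be told apart here. Het 48 h replicate 2 and KO 48 h replicate 3, of the same range but different numbers, correlated at 0.363. The numbers were treated as pairs in an alternative. Other alternatives covered centring, quantile normalization, scaling, feature summary, values beyond 6 log2 units, array weights, robust fits, the database range, the conflicting labels and each array left out.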

Additional observations from a re-analysis of the deposited data

Results flagged for a closer look

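Single arrays stood far from the rest of their genotype in 24 of 130 groups of early arrays examined (18.5%, 20 genes), and 19 of the 24 values were low. The cut-offs are set to flag about 1 in 20 groups whose values vary alike around 1 mean. That rate does not apply as such here, since the groups pool 24 and 48 h. Many of these genes were also named for the size of their differences on the same arrays. The rate among unselected genes was not measured. Het 24 h replicate 1 held 9 of them: Alpl at 1.56, Casp4 at -3.73, Edem1 at -7.94, Id2 at -5.90, Mzb1 at -9.19, Ncf1 at -6.90, Pigv at -7.81, Slc35a2 at -6.51 and Traf4 at -3.95. KO 24 h replicate 1 held 14: B2m at -1.49, Bcl2a1d at 4.19, Edem1 at -4.07, Foxp1 at -1.45, Herpud1 at -2.92, Id2 at -1.07, Myc at -2.99, Rheb at -1.77, Sec61a1 at -1.35, Slc35a2 at -3.58, Socs2 at 0.77, Tcf4 at -1.75, Traf4 at 0.80 and Trp53inp1 at -4.70. The remaining value was Bank1 at 4.74 on KO 48 h replicate 1. The 2 arrays with 23 of the 24 values are those of the lowest range of the database number.

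The difference KO minus Het of Socs2 was farther from 0 at 96 h than early, a change of -3.58. Socs2 was the 1 gene for which the change of the difference between times passed the test.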

How the results depend on the processing

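The count of 0 genes in the pooled comparison held in all 26 alternatives, with 2 to 87 genes at an unadjusted p under 0.05. With the replicate block Jchain differed by -3.35 (adjusted p 0.323 by limma), and the block changed no call other than the count against 96 h (3 in place of 1). The change between 24 and 48 h gave 1 gene with values beyond 6 log2 units missing, and 0 to 20 with 1 array left out. Against 96 h the count was 9 with array weights, 6 without the lowest range, 5 after quantile normalization, 3 when the named features set the centre, when scaled to a common spread, with extreme values missing or with the range as a factor, 2 without centring, with the conflicting arrays taken as Het or with a robust fit, and 1 to 4 with 1 array left out. Against unstimulated cells it was 7 with weights, 2 when scaled, 2 without the lowest range and 0 to 15 with 1 array left out.

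Signs of genes that never passed turned as follows, and the cause was not tested. With array weights Cd3g was 0.81, Edem1 -0.90, Gsn -0.014, Jun -0.019, Mzb1 -0.29, Sash1 -0.070, Sdc1 0.41 and Slc35a2 -0.044. Centred over the named features Bank1 was 0.11, Cd3g 0.20, Csf1 0.13, Sdc1 0.13 and Tap1 0.14. After quantile normalization Cd3g was 0.40, Edem1 -0.49 and Slc35a2 -0.060. When scaled, Bank1 was 0.60, Edem1 -0.34, Mt2 -0.15, Tap1 0.23 and Trp53inp1 -0.23. With extreme values missing Edem1 was -1.33, Id2 -0.25, Mzb1 -0.42 and Trp53inp1 -0.37. Without the conflicting arrays Cd3g was 0.25, Irf1 -0.048, Sdc1 0.42 and Trp53inp1 -0.022. With them taken as Het, Cd3g was 0.36, Ets1 -0.12, Ikbke -0.065, Irf1 -0.16, Mt2 -0.15, Pced1b -0.12, Sdc1 0.57, Socs2 0.11 and Trp53inp1 -0.38. Without the lowest range B2m was 0.0059, Bank1 0.0031, Edem1 -0.85, Foxp1 0.030, Mzb1 -0.37, Slc35a2 -0.058 and Tap1 0.13. With 1 array left out the ranges were -0.56 to 0.41 for Cd3g, -1.33 to 1.78 for Edem1, -0.063 to 2.08 for Id2, -0.065 to 0.47 for Ikbke, -0.078 to 0.28 for Irf1, -0.42 to 2.99 for Mzb1, -0.59 to 0.53 for Sdc1, -0.51 to 1.95 for Slc35a2, -0.35 to 0.11 for Tap1 and -0.28 to 0.79 for Trp53inp1. Leaving out the lowest range and centring over the named features together, added after seeing the data, gave 0 genes.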
